A study of Mus musculus with 14 samples.

Results

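The 41 genes described here copy DNA, package it behind the replication fork or supply its nucleotides, and they were chosen by name from textbook knowledge of these machines. They were read from 30436 features measured in 14 liver samples of male C3HeB/FeJ mice, an inbred strain prone to spontaneous liver tumours. All 41 had a row in the count table, and 37 passed the filter on low counts, as did 12300 features in all. The 4 that did not pass, Orc1, Cdc6, Cdc45 and Gins3, are described by their counts alone.

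The samples are 4 normal livers (Normal 1 to 4), 6 liver tumours labelled Grow and 4 labelled Regress. How growth or regression was scored is not stated in the labels. Mice were examined at 10 months, given intraperitoneal injections on 5 days of every 28 for 6 cycles, and are labelled as 18 months old. The normal livers came from mice given phosphate citrate buffer. Grow 1 and Grow 5 had received DMSO, Grow 2, Grow 3 and Grow 4 SAHA (suberoylanilide hydroxamic acid, a histone deacetylase inhibitor, 85 mg/kg) with TMZ (temozolomide, a DNA-alkylating drug, 22 mg/kg), and Grow 6 SAHA alone at 100 mg/kg. Regress 1 and Regress 3 had received TMZ at 31 mg/kg, Regress 2 buffer and Regress 4 DMSO. Because Regress 2 was the only tumour given the buffer of the normal livers, tissue and injected agent cannot be told apart in the comparisons with normal liver. The labels do not say that each sample came from its own mouse (1 sample code is given both to Normal 4 and to Regress 2), so the p-values measure spread among samples that may be technical in part.

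DNA replication is licensed in G1, when the origin recognition complex with Cdc6 and Cdt1 loads the ring of Mcm2 to Mcm7 onto DNA, and geminin (Gmnn) blocks Cdt1 once S phase has begun. Cdc45 and the GINS complex then turn the ring into a moving helicase, and primase, polymerases, the sliding clamp and its loader copy the strands while ribonucleotide reductase, thymidylate synthase and thymidine kinase supply deoxynucleotides. Most hepatocytes of an adult liver are out of cycle and re-enter it after injury, and many of the genes named here are textbook targets of the E2F transcription factors, held down by the RB family in resting cells.

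The upstream sequences of 6 of the genes are printed because they hold, or lack, the short words by which E2F and the CCAAT-binding factor NF-Y are usually recognised, and they were picked after their values were seen, as genes whose Grow tumours lay mostly above or mostly below normal liver. Over all tumours Mcm2 and Lig1 had larger log2 differences than Mcm6 and are not printed, and the window of Mcm2 holds no E2F-type word. Each run is the 250 bases before a RefSeq transcript start on GRCm38.p6, written 5′ to 3′ on the gene's strand. Capitals mark the E2F-type words searched (TTTCCCGC or TTTGGCGC or TTTCGCGC or TTTGCCGC) and CCAAT, each on either strand, so that ATTGG is CCAAT read from the other strand. The windows are chr17:56304063-56304312 (plus strand) for Uhrf1, chr8:75109259-75109508 (plus) for Mcm5, chr1:128359706-128359955 (minus) for Mcm6, chr12:24708004-24708253 (plus) for Rrm2, chr2:5012792-5013041 (minus) for Mcm10 and chr11:117826015-117826264 (minus) for Tk1.
Uhrf1: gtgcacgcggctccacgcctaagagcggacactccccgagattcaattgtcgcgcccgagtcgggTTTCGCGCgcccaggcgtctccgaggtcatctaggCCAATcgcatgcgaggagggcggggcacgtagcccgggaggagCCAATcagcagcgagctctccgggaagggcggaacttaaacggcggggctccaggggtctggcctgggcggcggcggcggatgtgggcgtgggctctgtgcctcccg
Mcm5: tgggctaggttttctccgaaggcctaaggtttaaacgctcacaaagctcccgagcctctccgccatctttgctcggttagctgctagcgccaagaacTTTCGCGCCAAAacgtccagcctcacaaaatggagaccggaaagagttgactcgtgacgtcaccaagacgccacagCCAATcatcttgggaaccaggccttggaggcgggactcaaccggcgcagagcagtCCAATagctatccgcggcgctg
Mcm6: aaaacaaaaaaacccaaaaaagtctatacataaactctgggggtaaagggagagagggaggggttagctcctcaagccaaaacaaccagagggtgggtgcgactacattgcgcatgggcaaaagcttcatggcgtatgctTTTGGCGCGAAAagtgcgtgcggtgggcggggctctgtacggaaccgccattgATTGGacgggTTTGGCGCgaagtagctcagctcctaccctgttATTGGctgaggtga
Rrm2: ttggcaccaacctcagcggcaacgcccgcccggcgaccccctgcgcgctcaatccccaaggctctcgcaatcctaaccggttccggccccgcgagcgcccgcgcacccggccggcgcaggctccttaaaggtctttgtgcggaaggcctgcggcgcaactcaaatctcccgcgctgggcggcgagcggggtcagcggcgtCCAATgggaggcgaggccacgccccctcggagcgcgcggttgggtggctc
Mcm10: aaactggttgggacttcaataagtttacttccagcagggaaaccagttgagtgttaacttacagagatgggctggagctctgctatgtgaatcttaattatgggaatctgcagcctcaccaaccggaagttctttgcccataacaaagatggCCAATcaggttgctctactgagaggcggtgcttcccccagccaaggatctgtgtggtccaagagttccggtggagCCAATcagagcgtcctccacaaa
Tk1: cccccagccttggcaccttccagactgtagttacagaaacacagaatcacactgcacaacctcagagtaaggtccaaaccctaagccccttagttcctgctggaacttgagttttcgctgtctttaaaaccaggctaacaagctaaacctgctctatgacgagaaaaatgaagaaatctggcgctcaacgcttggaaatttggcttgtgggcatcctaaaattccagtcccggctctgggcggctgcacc
In Mcm5 and Mcm6 a pair of E2F-type words read from opposite strands overlap, and Mcm6 holds a further word nearer the start. No searched E2F-type word stands in these windows of Rrm2, Mcm10 or Tk1, which says only that those letters are absent here. RefSeq windows of 300 bases (250 before to 50 after a start) were matched for 34 of the 41 genes. Of these 34, 13 (38.2%) held an E2F-type word, against 704 (2.60%) of 27025 genes with such a window, and 22 (64.7%) held CCAAT, against 41.1%. The 13 are Orc1, Cdc6, Cdt1, Mcm3, Mcm5, Mcm6, Mcm7, Gins3, Rfc3, Pola1, Pold1, Lig1 and Uhrf1. A gene was counted where any of its windows held the word. Uhrf1 has a second RefSeq start, whose window holds no E2F-type word and is not printed. A match is a description of the letters and not a measured binding site.

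Libraries held 4707063 to 13394301 estimated counts, and levels below are in CPM, counts scaled to library size with TMM factors. Grow 3 and Grow 4 were the most alike pair of the Grow libraries (Pearson r of 0.971 over genes). They differed by more than sampling noise, with a median chi-square of 0.87 per gene where 0.455 is expected, and were kept as separate samples. Of 6 marker genes of hepatocytes, Alb (albumin) was at 26020 CPM or more in every library. Cps1 ran from 1518 to 3937 CPM in normal liver, 50.35 to 1782 in Grow and 658 to 1080 in Regress tumours. Of the 6, 2 had higher and 4 had lower fitted values in tumours than in normal liver. Markers of all leukocytes (Ptprc, Coro1a, Laptm5) summed to 24.6 to 52.0 CPM in normal liver, 34.2 to 57.3 in Grow and 28.8 to 84.4 in Regress tumours. In bulk tissue, fewer cells of a type and less RNA per cell cannot be told apart.

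Against normal liver, the tumours held more RNA of Rrm2 and Uhrf1, and these were the only replication genes called by edgeR's quasi-likelihood test, the threshold being 0.05 after Benjamini-Hochberg adjustment. The count was 2 of 37 higher and 0 lower, beside 2.32% of all 12300 features called (1.59% higher and 0.732% lower). The median log2 difference of the 37 genes was 0.31, against 0.01 for all features, and 28 of the 37 lay above 0 where 50.9% of all features did. At an unadjusted p under 0.05 there were 10 higher and 2 lower, where 18.0% of all features passed. The 2 lower ones were Mcm10 and Tk1. Only Rrm2 and Uhrf1 were higher in all 10 tumours than in every normal liver, a pattern that 1.09% of all features showed, and none was lower in all 10, which 0.935% of features were.

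**Figure D1:**
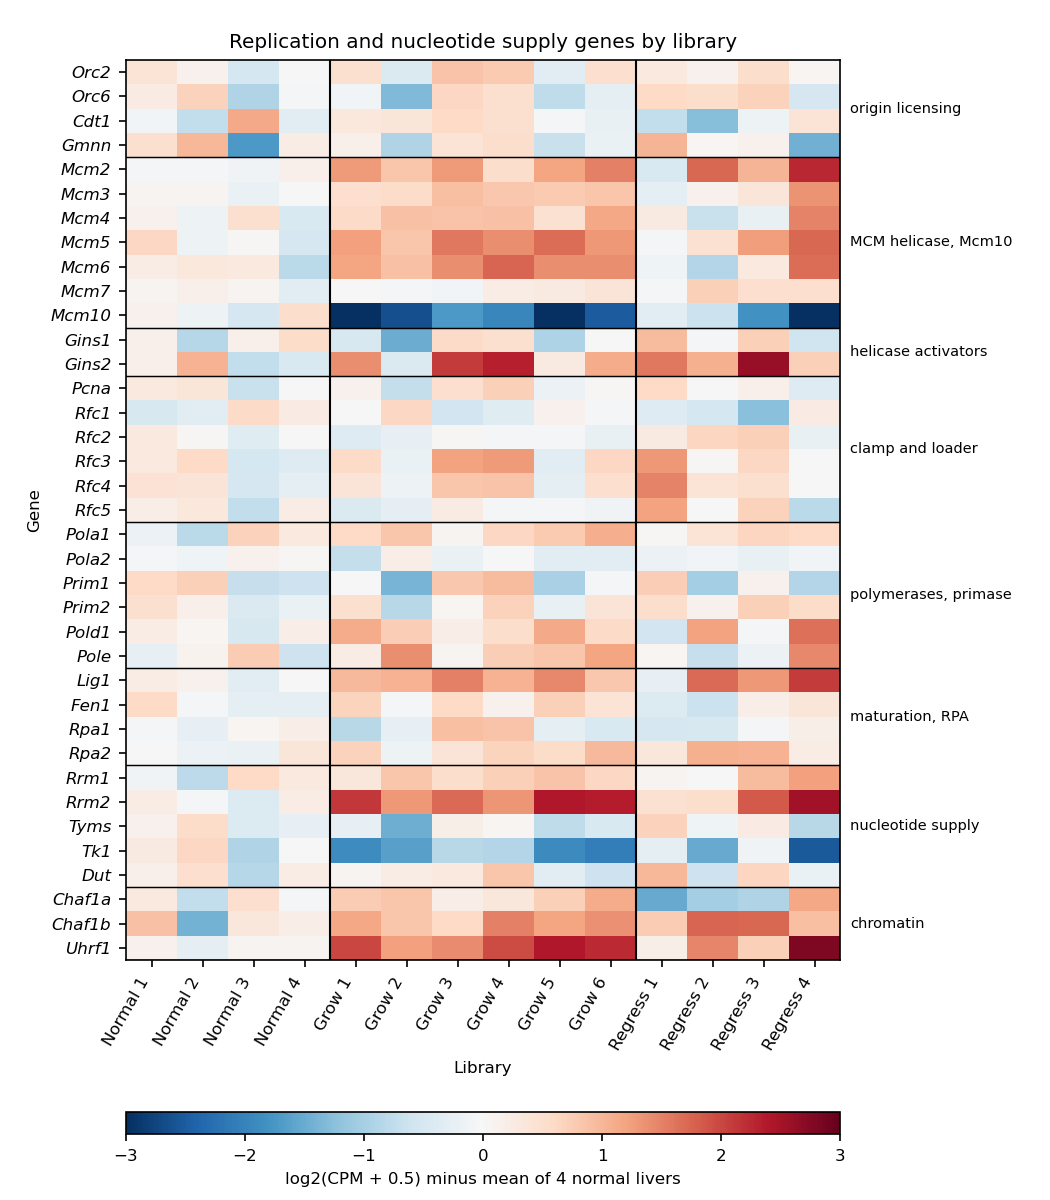
Log2(CPM + 0.5) of the 37 tested genes (rows, by role) in the 14 libraries (columns), minus the mean of the 4 normal livers, on a colour scale that ends at -3 and 3. Rrm2 and Uhrf1 are red in the 6 Grow tumours, Mcm10 and Tk1 are blue there, and Regress 1 is pale in these rows.

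Among the nucleotide supply genes, Rrm2 stood at 2.63, 2.10, 1.49 and 2.62 CPM in Normal 1 to 4, between 6.04 and 13.6 with a median of 9.67 in the 6 Grow tumours, and 3.15, 3.36, 9.01 and 14.8 in Regress 1 to 4. Rrm2 encodes the small subunit of ribonucleotide reductase, the enzyme that makes deoxynucleotides and whose small subunit rises in S phase. All 10 tumours lay above the highest normal liver, with Regress 1 and Regress 2 closest to it. Means were 2.21 ± 0.538 CPM in normal liver (SD, n = 4), 9.70 ± 3.38 in Grow (n = 6) and 7.58 ± 5.53 in Regress tumours (n = 4). The log2 difference was 1.95 ± 0.44 (SE) over all tumours (adjusted p = 0.0394), 2.12 ± 0.47 in Grow (adjusted p = 0.0384) and 1.78 ± 0.49 in Regress tumours, which did not pass (adjusted p = 0.0974).

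Uhrf1, which recruits the maintenance DNA methyltransferase to newly copied DNA, was the lowest of the 37 genes in normal liver, where it had 3 counts in the 4 libraries together. It stood at 0.175, 0, 0.149 and 0.145 CPM in Normal 1 to 4, between 0.929 and 2.74 with a median of 1.93 in the 6 Grow tumours, and 0.197, 1.19, 0.515 and 3.81 in Regress 1 to 4. Every tumour was above every normal liver, though Regress 1 held 1 count, as did Normal 1, Normal 3 and Normal 4. The ratio of pooled counts, tumours over normal liver, was 15.2 with a 95% interval of 5.08 to 74.6 (exact Poisson, counting error only). The fitted log2 difference, which for so few counts depends on the prior count, was 3.61 ± 0.82 (adjusted p = 0.0397) over all tumours, 3.76 ± 0.85 (adjusted p = 0.0423) in Grow and 3.45 ± 0.90 (adjusted p = 0.0855) in Regress tumours.

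The Rrm2 and Uhrf1 calls stood close to the threshold. Without any 1 of the 4 normal livers, neither gene was called in tumours against normal liver, where 0% to 0.459% of all features were called. The same held without Grow 1, Grow 5, Grow 6 or Regress 3, where 0.799% to 1.32% of features were. The Uhrf1 call was also lost without Grow 4 (1.84% of features called) or Regress 2 (1.52%). With all libraries the share was 2.32%, so calls were lost over all features and not in these genes alone. The log2 differences with 1 library left out ran from 1.67 to 2.08 for Rrm2 and from 3.01 to 3.79 for Uhrf1. Over all alternatives tried, the adjusted p of Rrm2 ran from 0.000411 to 0.243 and that of Uhrf1 from 0.00448 to 0.228. Without Regress 1, 6 genes were called, where 7.84% of all features were, with Mcm2, Mcm5 and Lig1 higher and Mcm10 lower beside Rrm2 and Uhrf1.

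**Figure D2:**
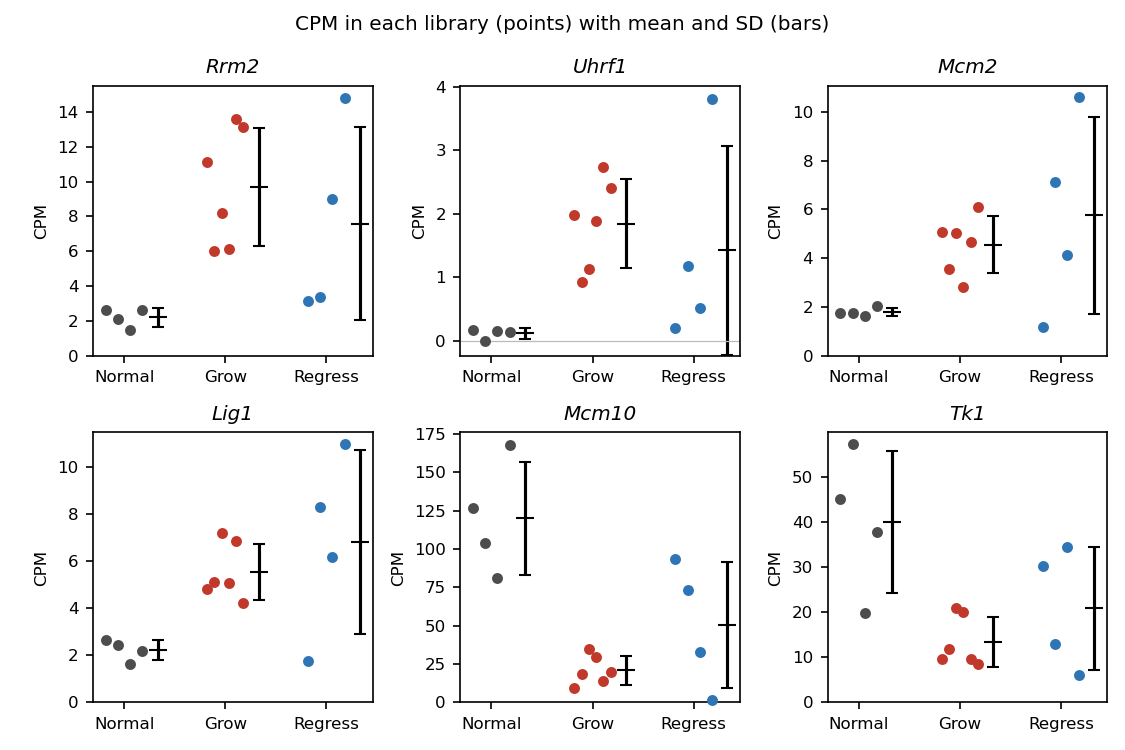
CPM of 6 genes (panels) in each library (points), with the mean and SD of each group beside them (n = 4 Normal, 6 Grow, 4 Regress). Rrm2 and Uhrf1 do not overlap between normal liver and tumours, while Mcm10 and Tk1 are highest in normal liver.

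Tk1, thymidine kinase of the salvage pathway and a common S-phase marker, was lower in most tumours than in normal liver, without passing the test. It stood at 45.1, 57.3, 19.7 and 37.7 CPM in Normal 1 to 4, between 8.49 and 20.8 with a median of 10.7 in the 6 Grow tumours, and 30.1, 12.8, 34.5 and 6.07 in Regress 1 to 4. Of the 10 tumours 6 lay below the lowest normal liver, Normal 3, and Regress 1 and Regress 3 lay among the normal livers. Its log2 difference was -1.26 ± 0.40 (adjusted p = 0.0988) over all tumours and -1.57 ± 0.44 (adjusted p = 0.0773) in Grow, neither past the threshold. Per kilobase of transcript, the mean Tk1 level of 27.7 CPM in normal liver was at rank 2 of the 37 genes, and in Grow tumours it was 9.30. Tk1 overlaps Afmid in the RefSeq annotation, and reads of the pair cannot be told apart with libraries that keep no strand information.

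No other nucleotide supply gene was called. Tyms, thymidylate synthase, stood at 15.4, 20.9, 10.5 and 11.9 CPM in Normal 1 to 4, between 4.80 and 16.2 with a median of 11.0 in the 6 Grow tumours, and 23.2, 12.8, 17.0 and 7.76 in Regress 1 to 4. Its tumour values lay on both sides of the normal range, 1 above and 4 below it, and the log2 difference was -0.18 ± 0.33 (adjusted p = 0.877). Rrm1, the large subunit of ribonucleotide reductase, differed by 0.61 ± 0.30, and Dut, the dUTPase that keeps uracil out of DNA, by 0.19 ± 0.39. Neither of these passed, so within this role only the small reductase subunit was called.

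The Mcm2 to Mcm7 ring showed higher values in Grow tumours for most of its subunits. Mcm2 stood at 1.75, 1.75, 1.64 and 2.04 CPM in Normal 1 to 4, between 2.83 and 6.09 with a median of 4.87 in the 6 Grow tumours, and 1.18, 7.12, 4.12 and 10.6 in Regress 1 to 4. Every Grow tumour and 3 of 4 Regress tumours were above all normal livers, and Regress 1 was below them. The log2 difference of Mcm2 was 1.50 ± 0.44 in all tumours (adjusted p = 0.0798). For Mcm5 it was 1.37 ± 0.40 (adjusted p = 0.0819), for Mcm6 0.97 ± 0.43, for Mcm3 0.74 ± 0.32, for Mcm4 0.70 ± 0.41 and for Mcm7 0.29 ± 0.19, and none passed the threshold. All 6 Grow tumours exceeded every normal liver in Mcm3, Mcm5 and Mcm6 as well, a pattern that 5.27% of all features showed. Mcm7, which overlaps Ap4m1 and hosts 3 microRNA genes in RefSeq, was above the normal range in 3 of 6 Grow tumours.

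Summed over Mcm2 to Mcm7, whose transcripts are alike in length (2910 to 3589 bases), the level was 23.7, 23.0, 23.2 and 16.3 CPM in Normal 1 to 4. In Grow tumours the sum ran from 31.1 to 43.5 with a median of 39.7, all above normal liver. In Regress 1 to 4 it was 19.7, 31.0, 31.7 and 57.0, so that Regress 1 lay among the normal livers and Regress 4 above every other sample. These sums are a description and carry no test. They are not corrected for how CPM depended on transcript length in each library, which likeness in length within the ring does not remove. Per doubling of length, the slope of log2 CPM over the 37 genes was -0.66 in Regress 1 and 0.59 in Regress 4.

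Mcm10, which binds the ring and helps to start the fork, had lower values in most tumours than in normal liver. Its values were 127, 104, 81.1 and 168 CPM in Normal 1 to 4, between 9.45 and 34.6 with a median of 19.2 in the 6 Grow tumours, and 93.4, 73.5, 32.7 and 1.83 in Regress 1 to 4. All 6 Grow tumours were below the lowest normal liver, a pattern that 4.28% of all features showed, and so were Regress 2, Regress 3 and Regress 4. Regress 4 had the least Mcm10 and the largest ring sum of all samples. The log2 difference of Mcm10 was -1.88 ± 0.56 in all tumours (adjusted p = 0.0839) and -2.51 ± 0.65 in Grow (adjusted p = 0.0606), short of the threshold. It was called in both comparisons without Regress 1 (log2 difference -2.13 and -2.52) and without Regress 4 (-1.68 and -2.52). Per kilobase Mcm10 was the most abundant of the 37 genes in normal liver at 34.3 CPM, where Mcm2 to Mcm7 held 0.447 (Mcm5) to 3.28 (Mcm7), and in Grow tumours it held 6.01.

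Among 39 tested markers of liver and blood cell types (47 listed), edgeR called Cd14, of monocytes and macrophages, and Lyve1, of sinusoidal endothelium, higher in tumours (log2 differences 3.06 ± 0.72 and 3.09 ± 0.74, adjusted p = 0.0408 and 0.0443). Of the 5 endothelial markers 4 lay above 0 and 1 below, with a median of 0.30, and only Lyve1 was called. Stab2, of the same list, ran from 25.8 to 46.9 CPM in normal liver, 13.9 to 63.2 in Grow and 14.2 to 26.4 in Regress tumours. In Grow tumours Dcn, of stellate cells and fibroblasts, was called lower at -2.36 ± 0.39 (adjusted p = 0.0178), from 26.1 to 72.0 CPM against 132 to 294 in normal liver. The 5 markers of these cells went both ways in Grow, 3 above 0 and 2 below, with a median of 0.13. Col1a1 ran from 2.24 to 9.59 CPM in Grow against 0.351 to 1.64 in normal liver. With each library's trend on transcript length removed, Col3a1 was called higher and Dcn lower in tumours. In that fit Col1a1 and Col3a1 were called higher in Regress tumours. Col1a1 stood at 0.985, 2.77, 5.15 and 186 CPM in Regress 1 to 4, and Col3a1 at 11.8, 30.05, 59.0 and 266. Regress 1 lay within the normal range of both (5.09 to 12.5 CPM for Col3a1), and Regress 4 was by far the highest. Markers of erythroid precursors and of Kupffer cells had lower values in many tumours. The erythroid markers Alas2, the first enzyme of haem synthesis in these cells, and Klf1, an erythroid transcription factor, were tested and not called. Alas2 ran from 82.4 to 220.1 CPM in normal liver, 20.1 to 123 in Grow and 16.2 to 135 in Regress tumours. Klf1 ran from 2.10 to 4.36, 0.147 to 1.08 and 0 to 1.97 CPM, and Hemgn was at 0 in all 14 libraries. The 5 Kupffer cell markers, none of them called, summed to 234 to 707, 22.6 to 317 and 86.1 to 520 CPM. With the trend on transcript length removed from each library, Klf1 was called lower in tumours (-2.19 ± 0.56, adjusted p = 0.037) and the Kupffer marker Clec4f lower in Grow (-2.42 ± 0.63, adjusted p = 0.043). The part of these cells in the Mcm10 and Tk1 values was not tested.

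No origin licensing gene was called. Orc2, a subunit of the origin recognition complex, had the lowest adjusted p of this role and stood at 7.55, 6.13, 3.74 and 5.53 CPM in Normal 1 to 4, between 4.03 and 10.5 with a median of 8.05 in the 6 Grow tumours, and 6.89, 6.13, 8.24 and 5.78 in Regress 1 to 4. The groups overlapped, and the log2 difference was 0.31 ± 0.29 (adjusted p = 0.687). Orc6 differed by 0.06 ± 0.41. Cdt1, the loading factor, stood at 2.46, 1.40, 6.42 and 2.04 CPM in Normal 1 to 4, between 2.21 and 4.29 with a median of 3.50 in the 6 Grow tumours, and 1.38, 0.791, 2.32 and 3.67 in Regress 1 to 4, and its high value in Normal 3 put no tumour above the normal range. Its inhibitor Gmnn stood at 12.1, 17.4, 2.24 and 10.0 CPM in Normal 1 to 4, between 4.33 and 12.5 with a median of 8.41 in the 6 Grow tumours, and 17.7, 8.90, 9.27 and 2.82 in Regress 1 to 4. Gmnn was lowest in Normal 3, Regress 4 and Grow 2, and its difference of -0.21 ± 0.48 was smaller than its standard error.

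The licensing genes Orc1 and Cdc6 were too low to test. Orc1, the regulated subunit of the origin complex, had 0 counts in all 4 normal livers, which allows up to 0.120 CPM (3 counts over the group). It had 14 counts in the 6 Grow tumours, at least 2.30-fold higher than in normal liver with the Grow counts taken as they stand (the exact Poisson 95% interval of the ratio starts at 1.63), and 1 in the 4 Regress tumours. Cdc6 had 3 counts in normal liver, 29 in Grow and 9 in Regress tumours, a ratio of 4.76 (95% interval 1.48 to 24.4) for Grow and 3.55 (0.886 to 20.4) for Regress. Both intervals cover counting error only, and Orc1 overlaps Prpf38a.

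Of the helicase activators, Gins2 stood at 0.702, 1.75, 0.149 and 0.291 CPM in Normal 1 to 4, between 0.310 and 4.95 with a median of 2.10 in the 6 Grow tumours, and 2.76, 1.78, 6.18 and 1.27 in Regress 1 to 4. It was above all normal livers in 4 of 6 Grow and 3 of 4 Regress tumours, and ranged widely within Grow. The difference was 1.89 ± 0.77 (adjusted p = 0.207). Gins1 differed by 0.03 ± 0.49. Cdc45 had means of 0.250 ± 0.169 CPM in normal liver (SD, n = 4), 0.898 ± 0.664 in Grow (n = 6) and 0.999 ± 0.581 in Regress tumours (n = 4), and Gins3 of 0.924 ± 0.360 CPM in normal liver (SD, n = 4), 1.16 ± 0.247 in Grow (n = 6) and 1.72 ± 0.651 in Regress tumours (n = 4), both too low to test.

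The clamp and clamp loader showed no call. Pcna, the sliding clamp and a widely used proliferation marker, had means of 29.6 ± 8.66 CPM in normal liver (SD, n = 4), 31.8 ± 10.7 in Grow (n = 6) and 31.6 ± 9.14 in Regress tumours (n = 4). Its log2 difference was 0.10 ± 0.28 (adjusted p = 0.936), and it was the highest of the 37 genes per kilobase in Grow (20.9 CPM) and Regress (20.8) and rank 3 in normal liver (19.5). Rfc4, with the lowest adjusted p of the loader subunits, stood at 4.21, 4.03, 1.94 and 2.33 CPM in Normal 1 to 4, between 2.40 and 5.78 with a median of 4.23 in the 6 Grow tumours, and 9.26, 4.15, 4.38 and 2.96 in Regress 1 to 4. Its difference was 0.57 ± 0.37 (adjusted p = 0.484) with overlapping groups. Rfc1, the large subunit, stood at 10.9, 11.9, 23.2 and 18.2 CPM in Normal 1 to 4, between 10.1 and 23.7 with a median of 14.8 in the 6 Grow tumours, and 11.6, 10.5, 6.18 and 18.2 in Regress 1 to 4, and its difference of -0.26 ± 0.29 also lay within the overlap. Rfc2, Rfc3 and Rfc5 differed by 0.11 ± 0.20, 0.58 ± 0.38 and 0.13 ± 0.33.

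No polymerase or primase gene was called. Pold1, the catalytic subunit of polymerase delta, stood at 1.05, 0.876, 0.448 and 1.02 CPM in Normal 1 to 4, between 1.01 and 2.40 with a median of 1.59 in the 6 Grow tumours, and 0.394, 2.57, 0.772 and 3.67 in Regress 1 to 4. In Grow 5 of 6 and in Regress 2 of 4 tumours exceeded all normal livers, and Regress 1 was below them. The difference was 1.08 ± 0.53 (adjusted p = 0.302), that of Pole 0.70 ± 0.57 and that of Pola1 0.51 ± 0.31. Pola2, the accessory subunit of polymerase alpha, stood at 5.97, 5.61, 6.72 and 6.25 CPM in Normal 1 to 4, between 3.52 and 7.12 with a median of 5.05 in the 6 Grow tumours, and 5.32, 5.73, 5.15 and 5.78 in Regress 1 to 4, and 6 of 10 tumours were below the narrow normal range. Its difference was -0.19 ± 0.21 (adjusted p = 0.748). Prim1, the catalytic primase subunit, stood at 9.48, 10.3, 3.59 and 3.78 CPM in Normal 1 to 4, between 2.01 and 12.3 with a median of 5.96 in the 6 Grow tumours, and 10.4, 2.77, 6.70 and 3.10 in Regress 1 to 4, with tumours on either side of the normal livers, and differed by -0.13 ± 0.50. Prim2 differed by 0.34 ± 0.32.

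Lig1, the ligase that joins Okazaki fragments, was the nearest to a call after Rrm2 and Uhrf1. It stood at 2.63, 2.45, 1.64 and 2.18 CPM in Normal 1 to 4, between 4.24 and 7.20 with a median of 5.09 in the 6 Grow tumours, and 1.77, 8.30, 6.18 and 11.0 in Regress 1 to 4. Of the 10 tumours 9 were above every normal liver, and Regress 1 lay among them. The difference was 1.47 ± 0.38 (adjusted p = 0.0587). Fen1, which trims the flaps of these fragments, differed by 0.17 ± 0.31. The single-strand binding subunits Rpa1 and Rpa2 differed by -0.03 ± 0.31 and 0.67 ± 0.27, and Rpa1 was at 53.1 and 51.4 CPM in the closely similar Grow 3 and Grow 4 against at most 32.9 in every other library. Beside Uhrf1, the chromatin assembly subunits Chaf1a and Chaf1b differed by 0.31 ± 0.69 and 1.33 ± 0.56, neither called. Lig1, Fen1, Rpa1 and Chaf1a each overlap another gene in RefSeq (Zswim9, Tmem258, Smyd4 and Ubxn6).

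**Figure D3:**
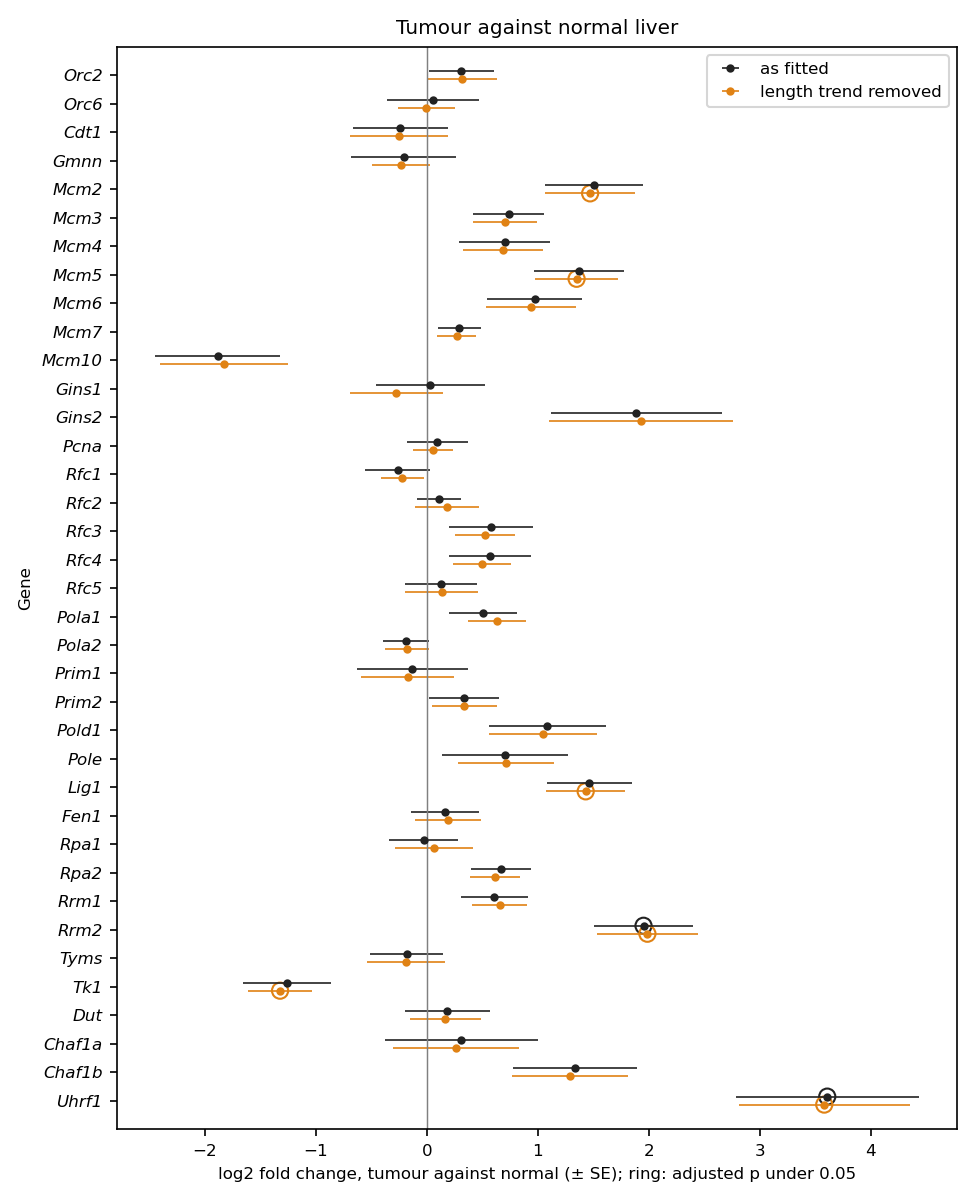
Log2 fold change of each tested gene, tumours against normal liver, with its SE, as fitted and after removal of each library's trend on transcript length. Rings mark an adjusted p under 0.05, which Rrm2 and Uhrf1 have in both fits and Mcm2, Mcm5, Lig1 and Tk1 in the second.

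Grow tumours alone against normal liver gave the same 2 called genes, Rrm2 and Uhrf1, of 37, where 1.76% of all features were called (1.12% higher, 0.642% lower). The median difference of the 37 was 0.41, against 0 for all features. Without overlap, 7 genes were higher in Grow (Mcm2, Mcm3, Mcm5, Mcm6, Lig1, Rrm2 and Uhrf1), where 5.27% of features were. Only Mcm10 was lower without overlap, where 4.28% of features were. At an unadjusted p under 0.05 there were 8 higher and 2 lower, where 16.6% of all features passed. The count of 2 called became 0 without any 1 of the normal livers, where 0.0317% to 0.19% of all features were called. It also became 0 without Grow 1, Grow 3, Grow 5 or Grow 6, where 0.204% to 1.15% of features were. The count was 1 without Grow 4 (1.11% of features called). It was 6 without Regress 1 (4.69%) or without Regress 4 (5.20%), which enter through the shared estimate of the spread. Fitted on the Normal and Grow libraries only, 9 genes were called, where 7.32% of all features were, with Mcm2, Mcm3, Mcm5, Mcm6 and Lig1 higher and Mcm10 and Tk1 lower beside the first pair.

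Regress tumours against normal liver gave 0 called of 37 by edgeR, where 0.0244% of all features were called, with 8 genes at an unadjusted p under 0.05 (16.2% of all features), all higher. DESeq2 called 4, where it called 5.79% of all features. The lowest adjusted p, of Uhrf1, was 0.0855. The median difference was 0.42, against 0.03 for all features. Values spread widely among these 4 tumours: Regress 4 was the highest of all 10 tumours in 11 of the 37 genes, and Regress 1 was the highest in 8 and the lowest in 9. Without Regress 1 the count was 4 (Mcm2, Lig1, Rrm2 and Uhrf1, all higher), where 5.28% of all features were called. Only Rrm2 and Uhrf1 were above all normal livers in all 4 Regress tumours, where 2.72% of features were, and none was below all of them, as 3.20% of features were.

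Regress and Grow tumours were compared with each other in the same fit, and edgeR called 0 of 37 genes and 0% of all features. DESeq2 called 0 of 37 and 0.252% of all features. At an unadjusted p under 0.05 there was 1 where 10.0% of features passed, Rfc2, at 0.54 ± 0.21 (Regress minus Grow, adjusted p = 0.474). The difference of Mcm10 was 1.26 ± 0.64 and that of Mcm6 -0.84 ± 0.44. No replication gene separated these groups without overlap, where 0.374% of features did so higher and 0.545% lower in Regress. Without Regress 4, 4 genes were called (Mcm10 and Rfc2 higher in Regress, Mcm6 and Chaf1a lower), among 1249 features called in all (9.98%).

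The 5 tumours given TMZ, alone or with SAHA, were compared with the other 5 beside the group. By edgeR 0 of 37 genes were called, as were 0% of all features, with 7 at an unadjusted p under 0.05 (13.9% of all features) and 1 (Tk1) called by DESeq2, which called 3.77% of all features. Tk1 ran from 11.8 to 34.5 CPM with a median of 20.8 in TMZ tumours and from 6.07 to 12.8 with a median of 9.59 in the others, a fitted difference of 1.26 ± 0.32 (adjusted p = 0.118). Dut was the only replication gene whose values did not overlap, at 4.65 to 8.27 against 2.37 to 4.18 CPM, with 1.01 ± 0.32 (adjusted p = 0.197). Dut was picked out after its values were seen. The share of all features without overlap in this comparison was not counted, so the lack of overlap is a description only. Uhrf1, Pold1 and Mcm2 were lower with TMZ by point estimate, at -1.43 ± 0.52, -1.22 ± 0.44 and -0.95 ± 0.36. Without Grow 2, Tk1 and Prim1 were called higher, where 6.01% of all features were called. Of the 5 TMZ tumours 3 also had SAHA, so that the drugs cannot be told apart in those, and the other 5 had received DMSO, buffer or SAHA.

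Within Grow, the 4 tumours given SAHA, 3 of them with TMZ, were set against the 2 given DMSO. By edgeR 0 of 37 genes and 0% of all features were called, and by DESeq2 0 of 37 and 0.423%. By edgeR 1 gene, Rpa1, reached an unadjusted p under 0.05 (as did 2.64% of features) at 0.93 ± 0.41 (adjusted p = 1.00). Its high values were those of Grow 3 and Grow 4.

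The libraries differed in how CPM depended on transcript length, and the replication genes did so too. Per doubling of length, the deviation of log2 CPM over 11421 genes had a slope from -0.48 (Regress 3) to 0.45 (Normal 3), and over the 37 genes from -0.66 (Regress 1) to 0.59 (Regress 4). In Normal 3 and Regress 4, short transcripts such as Gmnn (963 bases) were low and long ones such as Pole (7163 bases) high. With each library's trend removed, 6 genes were called in tumours against normal liver, Mcm2, Mcm5, Lig1, Rrm2 and Uhrf1 higher and Tk1 lower, where 5.78% of 11421 features were. In Grow, 5 were called, Mcm5, Rrm2 and Uhrf1 higher and Mcm10 and Tk1 lower, where 4.79% of features were, and in Regress tumours none (lowest adjusted p = 0.0529), where 1.36% of features were called, with 12 at an unadjusted p under 0.05 beside 19.0% of features. In the TMZ comparison Tk1 was called higher at 1.04 ± 0.19, where 0.692% of features were.

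**Figure D4:**
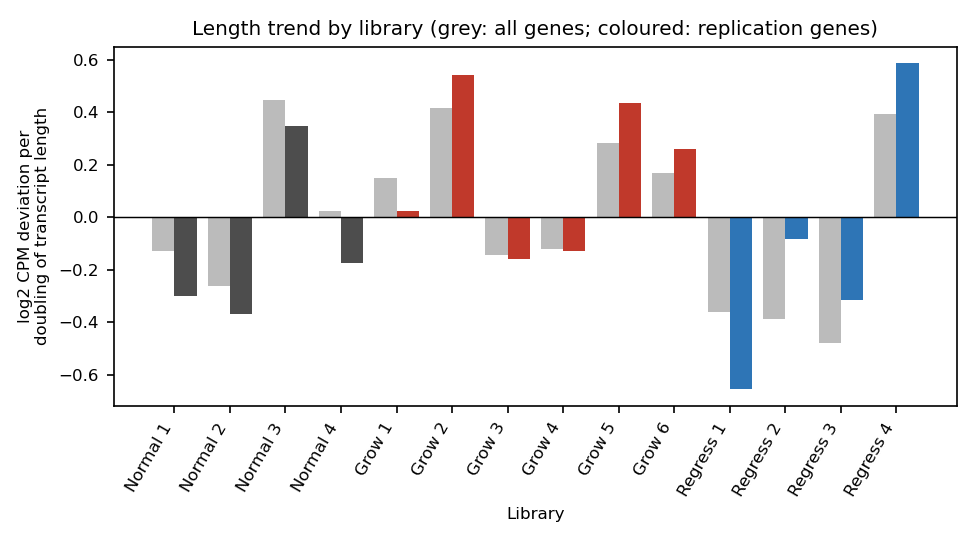
Slope of the log2 CPM deviation per doubling of transcript length in each library, over all 11421 genes with a length (grey) and over the 37 replication genes (coloured by group). Bars start at 0. Regress 1, Regress 2 and Regress 3 lean to short transcripts and Regress 4, Grow 2 and Normal 3 to long ones.

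Further genes of the same pathways, from lists of other replication factors, other nucleotide enzymes and the E2F and RB family, mostly showed no call. Of 21 tested further replication genes (30 listed), 0 were called in tumours against normal liver by edgeR, 3 at an unadjusted p under 0.05, with a median difference of 0.19. Pold4, of polymerase delta, stood at 23.2 CPM or more in all tumours and at most 19.0 in normal liver, a pattern that 1.09% of all features showed. Of 26 tested further nucleotide genes (27 listed), 1 was lower, Umps, the enzyme that completes UMP synthesis, at -0.73 ± 0.16 (adjusted p = 0.0328), and the median was -0.02. In Grow tumours Paics, an enzyme of purine synthesis, was lower as well at -1.28 ± 0.29 (adjusted p = 0.0424). Umps stood at 45.1, 44.1, 43.6 and 42.8 CPM in Normal 1 to 4, and between 24.6 and 27.7 with a median of 26.0 in the 6 Grow tumours. In Regress 1 to 4 it was at 36.5, 25.3, 23.4 and 21.3 CPM. All 10 tumours were below every normal liver, a pattern that 0.935% of all features showed. Of 16 tested E2F and RB genes (17 listed) 0 were called and 4 had an unadjusted p under 0.05, with a median of 0.15. E2f1 differed by 0.57 ± 0.43 and E2f3 by 1.06 ± 0.44. With the length trend removed, Pold4 was called higher in tumours and Ctps and E2f3 higher in Grow, while Umps and Paics were called lower in both. In that fit 5.78% of features were called in tumours and 4.79% in Grow.

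Genes of mitosis, a list chosen with earlier results of these data known, gave 10 of 14 tested called higher and 0 lower, with a median of 3.76. Their summed level was 3.64 to 6.50 CPM in normal liver, 49.4 to 91.1 in Grow and 7.12 to 96.6 in Regress tumours. Over the 41 replication and nucleotide genes the sum was 297 to 425, 242 to 394 and 289 to 415 CPM, ranges that overlap, with Mcm10, Tk1 and Pcna among the largest parts. The difference between the lists was not tested. Of the 12 mitosis genes with a RefSeq window, 1 held an E2F-type word and all 12 held CCAAT.

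**Figure D5:**
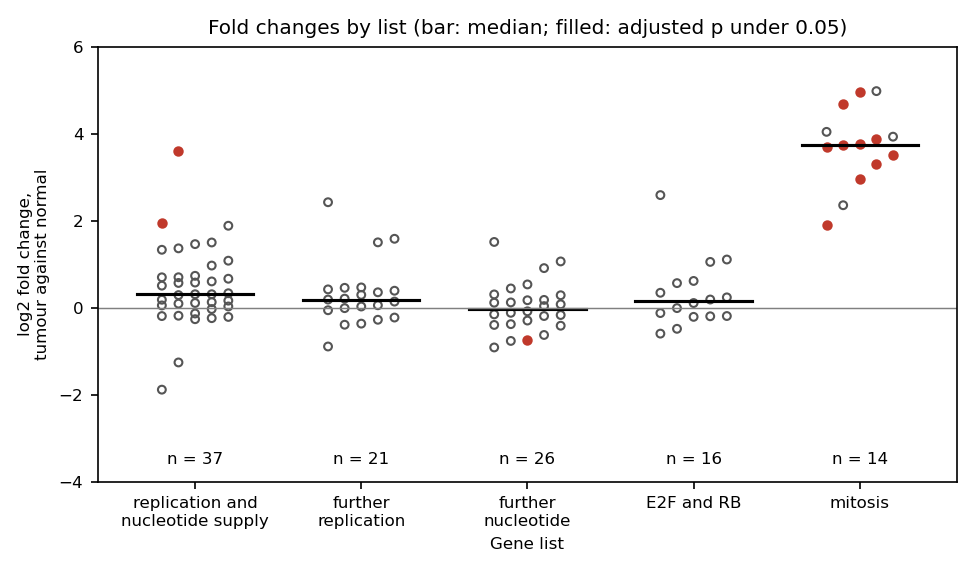
Log2 fold change, tumours against normal liver, of each tested gene of 5 lists (points), with the median (bar) and filled points at an adjusted p under 0.05. The medians are 0.31 for the replication and nucleotide genes, 0.19, -0.02 and 0.15 for the further lists and 3.76 for mitosis.

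Within the replication genes, the 10 tested ones with an E2F-type word had a median difference of 0.85 in tumours against normal liver, 9 of them above 0, and ran from -0.24 (Cdt1) to 3.61 (Uhrf1). The 20 tested ones whose window held none had a median of 0.15, 13 above 0, from -1.88 (Mcm10) to 1.95 (Rrm2). In Grow tumours the medians were 0.93 and 0.12, and in Regress tumours 0.59 and 0.16. These are descriptions over genes that share libraries and carry no test. In the printed windows, Uhrf1, Mcm5 and Mcm6 show the words and higher values in Grow tumours (for Uhrf1 at 1 of its 2 starts). Rrm2 shows the higher values without them, and Mcm10 and Tk1 the lower values without them. These genes were picked after their values were seen, so this match follows in part from the choice, and a link was not tested. Over all tumours Cdt1 had a word and a difference below 0, and Mcm2 a larger difference than Mcm6 without a word.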

How the data were processed

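Liver RNA of 14 samples was sequenced from libraries of the Illumina TruSeq v2 kit, per the labels' protocols. What the authors deposited is an expected count, a fractional estimate of reads, for each of 35230 RefSeq transcripts, per the file headers, and 1 further column without values was not used. Salmon 0.3.1, edgeR 3.14.0 and mm9 are listed, with no role, in the submitters' processing notes; the annotation is not given in the sources used here. Transcripts were matched to symbols through RefSeq GRCm38.p6 (26081) or GENCODE M21 (144), which also gave transcript lengths; 9005 stayed unmatched as features of their own (3.52% to 12.1% of a library). Counts were summed per gene and rounded, giving 30436 features.

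Comparisons used edgeR's quasi-likelihood test (version 4.0.16, R 4.3.3, with limma 3.58.1) with TMM scaling, filterByExpr and robust dispersions on all 14 samples in 1 fit (biological coefficient of variation 0.484). For all tumours the Grow and Regress effects were averaged. TMZ was a coefficient beside the group, and SAHA was tested within Grow in a fit with 4 groups. Genes with a Benjamini-Hochberg adjusted p below 0.05 over the 12300 tested features were called. SE is the absolute log2 fold change over the square root of F. The code was tested on simulated data. Alternatives were DESeq2 1.42.0, its size factors, no filter, a replicate block, other sample sets, removal of a lowess trend on length (span 0.3), and leaving out each replicate.

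Values are given for each Normal and Regress sample, and as a range and median for Grow. This holds for replication genes called, the lowest adjusted p of each role, genes with a tumour mean below normal, and Gmnn. Any other gene was picked after seeing its values. The genes and lists were chosen with earlier results of these data known. Values of 1 marker gene are not reported here.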

Additional observations from a re-analysis of the deposited data

Results flagged for a closer look

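In 48 groups of 4 or 6 samples (16 genes in 3 groups), 1 sample stood far from the others of its group: Uhrf1 was at 0.0 CPM in Normal 2, where the other 3 normal livers had 0.146 to 0.176 CPM. The gap was 0.829 of the group's range. Each of those 3 values is 1 count, so the gap is between 0 and 1 count, and chance alone marks about 1 in 20 groups.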

How the results depend on the processing

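Of 1067 recomputed fold changes (10 genes, 3 comparisons with normal liver) 0 changed direction; 63 lost and 73 gained a call. The counts of called replication genes, given next in the order tumours, Grow and Regress against normal liver, were 2, 2 and 0. DESeq2 gave 6, 7 and 4, and 1 for TMZ, where it called 8.58%, 8.24%, 5.79% and 3.77% of all features. Removal of the length trend gave 6, 5 and 0, and 1 for TMZ, where 5.78%, 4.79%, 1.36% and 0.692% of features were called. Without the filter on low counts Grow gave 1 (0.795% of all features called), with Grow 3 and Grow 4 summed 0 (0.927%), and on the compared groups only 9 (7.32%). Without Normal 4 and Regress 2, which share a sample code, tumours and Grow gave 0, where 0% and 0.143% of all features were called. Leaving out 1 library gave 0 to 6 for tumours, 0 to 6 for Grow, 0 to 4 for Regress, 0 to 4 for Regress against Grow and 0 to 2 for TMZ. The highest of these counts came where many features were called: 7.84% for tumours, 4.69% and 5.20% for Grow, and 5.28% for Regress. For Regress against Grow and for TMZ these shares were 9.98% and 6.01%. The same with the length trend removed, an alternative chosen after seeing the data, gave 0 to 7, 0 to 7 and 0 to 6. The shares of all features in those fits are not given, so these counts are not a result about the replication genes. With the replicate number as a block, tumours and Grow gave 0, where 0% of all features were called in either. Over 12 pairs of samples that share a number, deviations from the group means correlated between -0.52 and 0.20. Pairs with unlike numbers were not compared, so these values do not settle whether the numbers pair the samples. Grow 5 and Grow 6 have numbers no other group has. The SAHA count was 0 throughout; without Grow 1 or Grow 5 its DMSO side is 1 sample, assumed to vary like the other groups. The causes were not tested. Depth limits Orc1, Cdc6, Cdc45, Gins3 and Uhrf1, which had 0 to 8 counts in each normal liver.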
